A study of Mus musculus with 10 samples.

Results

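Regulatory T-cell and IL-10 genes were examined in mouse colon: 10 genes, taken by symbol from the 56691 genes of the table. They comprise the lineage factors Foxp3, Ikzf2, Ikzf4 and Gata3, the surface receptors Il2ra and Tnfrsf18, the cytokines Il10 and Tgfb1, and the receptor chains Il10ra and Il10rb. The study asked how chick early amniotic fluid (ceAF) alters gene expression in colitis caused by dextran sulfate sodium (DSS), a polymer in the drinking water that injures the colon lining. Male C57/BL6 mice aged 8 weeks drank 3% DSS for 7 days in both groups, and the ceAF group then received ceAF by gavage at 15 mL/kg for 10 days. What the DSS group received over those days, and its day of tissue collection, are not given in the sources used here. Each group had 5 libraries from colon tissue, taken here as 1 mouse each. The labels do not state this, so p-values set group differences against the spread between these libraries. The study's methods give 8 mice per group, and how the libraries were drawn from them is not given. Untreated mice were not analysed here.

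Regulatory T cells restrain other lymphocytes and keep the intestine tolerant of food and microbes, and Foxp3 is the transcription factor that defines them. They carry the high-affinity chain of the IL-2 receptor and act partly through IL-10 and TGF-beta. IL-10 comes from T cells and macrophages in the colon and signals through a pair of receptor chains to STAT3, and mice that lack it develop colitis. Several of these genes are also used elsewhere: Gata3 in type 2 lymphocytes, Tgfb1 in many leukocytes and stromal cells, and Il10rb in most tissues.

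Library totals ran from 16275884 to 19901549 gene counts in the DSS group and from 14676471 to 18811795 in the ceAF group. Some libraries stood apart from the rest. On the first principal component of log2 expression, which held 30.8% of the variance, ceAF-1 lay at 93.55 and the other libraries between -45.54 and 16.02. On the second, with 19.4%, DSS-1 lay at 60.27 and DSS-5 at -45.81, the highest and lowest scores. For many results the value without 1 of these libraries, or without all 3, is also given. Counts and fits without the 3 libraries together, and counts of each gene list under other fits, were added after the data were seen.

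Levels are CPM, counts scaled to library size with TMM factors, and differences are log2 fold changes of ceAF against DSS from the edgeR quasi-likelihood fit over the 16545 genes that passed the count filter. All 10 members passed that filter. Of them, 9 had a log2 fold change below 0 and 1 above, with a median of -0.52, against a median of 0.01 over all genes tested, where 8034 were below 0 and 8511 above. The lean rested partly on DSS-1: without it 6 of 10 members were below 0 with a median of -0.22, and with DSS-1, DSS-5 and ceAF-1 all left out 7 were, with a median of -0.19. At an unadjusted p under 0.05, 0 of 10 members were lower in ceAF, where 3.67% of all genes tested were, and 0 were higher, where 3.26% were. After Benjamini-Hochberg adjustment over all genes, edgeR's quasi-likelihood test called 0% of genes and 0 members. The unadjusted count over all genes was 1146, and it was 2575 with DSS-1, DSS-5 and ceAF-1 left out. Counts of gene lists without these 3 libraries are to be read against that larger number. After adjustment DESeq2 called 31 genes, none of them a member, and voom, run here with sample quality weights throughout, called 0. At an unadjusted p under 0.05, DESeq2 placed 1568 genes and 1 member, Il10. Voom placed 2452 genes and 0 members there. The ranges of both groups overlapped for all 10 members, where 1.24% of all genes tested had groups that did not overlap. In bulk tissue, fewer cells of a type and less RNA per cell cannot be told apart, which applies to every level given here. A p that misses the threshold does not show equal levels, so 95% intervals of the log2 fold change are given for the members described in full.

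Foxp3 (ENSMUSG00000039521, chromosome X, 7439883 to 7461484) was measured at the edge of detection. The genome build of the positions is not given in the sources used here. The DSS libraries 1 to 5 held 30, 14, 17, 13 and 5 Foxp3 counts, or 1.74, 0.700, 1.02, 0.833 and 0.300 CPM. The ceAF libraries held 7, 11, 16, 16 and 22 counts, or 0.534, 0.716, 0.877, 0.955 and 1.21 CPM. DSS-1 was the highest and DSS-5 the lowest of all 10, and the whole ceAF range lay between them. Mean Foxp3 was 0.918 ± 0.529 CPM in DSS and 0.858 ± 0.254 in ceAF (SD, n = 5 each). The log2 fold change of Foxp3 was -0.08 (SE 0.41, 95% interval -0.98 to 0.81), with a Benjamini-Hochberg adjusted p of 0.982 (edgeR quasi-likelihood). The difference of mean log2 levels had the other sign, 0.05 (exact two-sided permutation p = 0.921). Its direction also changed with the libraries: the fold change was 0.29 without DSS-1 and -0.28 without DSS-5. The counting error alone was wide, since a count of 5 has an exact Poisson 95% interval from 1.62 to 11.7 and a count of 30 one from 20.2 to 42.8. Foxp3 also overlaps Flicr on the same strand, at 0 to 10 counts, and Ccdc22, Ppp1r3f and Gm36995 on the opposite strand, at up to 14, 28 and 17 counts. Whether counting used strand is not given, so reads of these genes and Foxp3 may not be separable.

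Ikzf2 encodes Helios, a zinc-finger factor of regulatory T cells that is also made outside the T lineage. It was the member above 0. Ikzf2 stood at 20.8, 29.1, 50.7, 20.3 and 12.8 CPM in DSS libraries 1 to 5 and at 48.2, 23.6, 38.6, 40.8 and 15.2 CPM in ceAF libraries 1 to 5. DSS-3 and ceAF-1 were highest and DSS-5 and ceAF-5 lowest, so each group held both high and low mice. Ikzf2 had a log2 fold change of 0.31 (SE 0.38, 95% interval -0.53 to 1.16; adjusted p = 0.917, edgeR quasi-likelihood with Benjamini-Hochberg). It was 0.14 without ceAF-1, 0.70 without DSS-3 and -0.18 with DSS-1, DSS-5 and ceAF-1 all left out.

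The other lineage factors were at low level. Ikzf4, which encodes Eos, a partner of Foxp3 in gene repression, ranged from 0.833 to 1.98 CPM in DSS and from 0.391 to 1.43 CPM in ceAF. Its log2 fold change was -0.53 (SE 0.36), and 4 of 5 ceAF libraries lay below the DSS median. The Ikzf4 difference was -0.33 without DSS-5, -0.33 without ceAF-2 and -0.25 without the 3 libraries that stood apart. Gata3 ranged from 1.20 to 5.56 CPM in DSS and from 0.935 to 3.58 CPM in ceAF, with a log2 fold change of -0.59 (SE 0.44). All 5 ceAF libraries lay below the DSS median of Gata3, but only ceAF-5 lay below every DSS library. Without DSS-1 the Gata3 difference was -0.33.

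Il2ra encodes CD25, the chain that gives the IL-2 receptor its high affinity and that regulatory T cells hold at rest and other T cells after activation. It stood at 6.55, 2.60, 3.05, 2.75 and 1.56 CPM in DSS libraries 1 to 5 and at 0.763, 3.71, 2.52, 2.03 and 1.43 CPM in ceAF libraries 1 to 5. DSS-1 was far above the rest, ceAF-1 was the lowest, and the remaining libraries of both groups were mixed. Il2ra had a log2 fold change of -0.65 (SE 0.45, 95% interval -1.64 to 0.34; adjusted p = 0.809, edgeR quasi-likelihood with Benjamini-Hochberg). It was -0.24 without DSS-1 and -0.45 without ceAF-1.

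Tnfrsf18 encodes GITR, a costimulatory receptor that is high on regulatory T cells. Its levels were 4.81, 4.30, 3.83, 3.20 and 3.60 CPM in DSS libraries 1 to 5 and 2.98, 3.65, 4.66, 4.06 and 3.85 CPM in ceAF libraries 1 to 5. The groups covered nearly the same narrow range. Tnfrsf18 had a log2 fold change of -0.04 (SE 0.19, 95% interval -0.45 to 0.37), and it turned to 0.05 without DSS-1. The opposite-strand gene Gm16008 overlaps Tnfrsf18 and held 28 to 78 counts, beside 39 to 86 for Tnfrsf18, so the Tnfrsf18 values are uncertain to that extent.

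**Figure D1:**
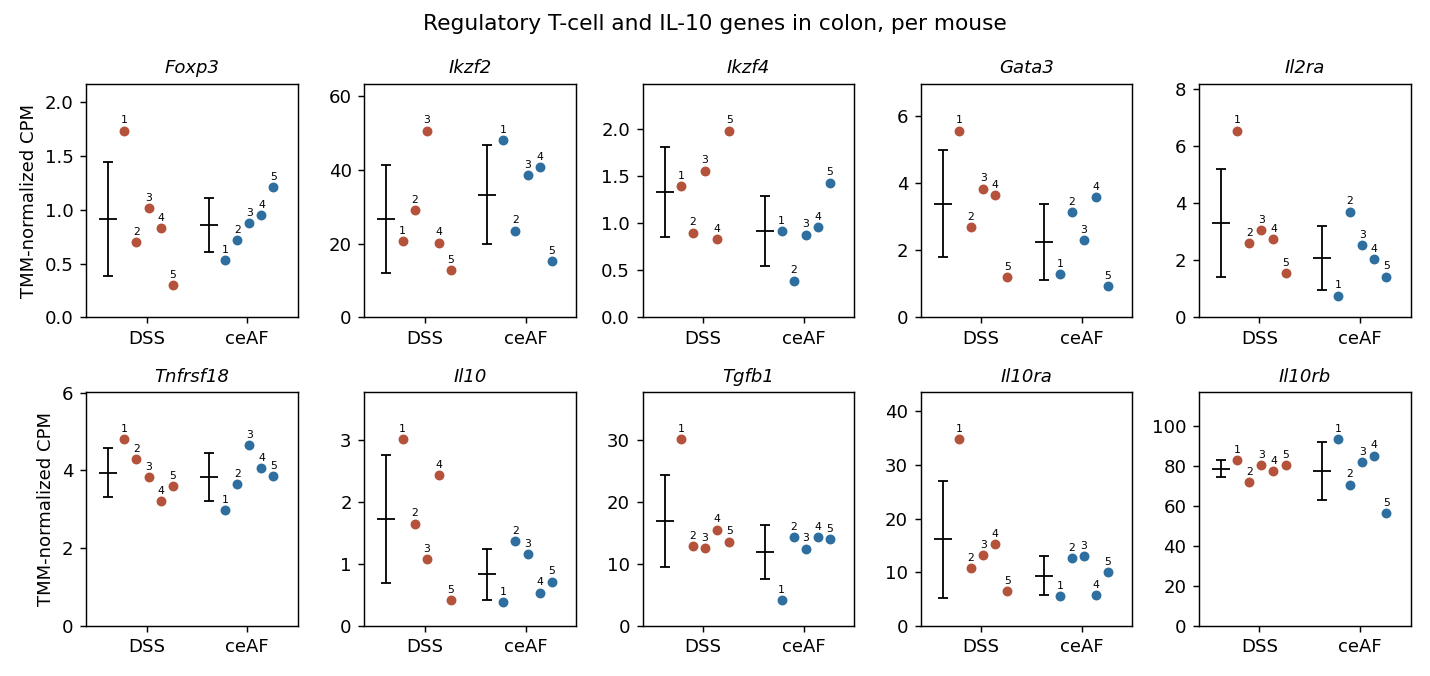
TMM-normalized CPM of each of the 10 genes in every library, with DSS in red and ceAF in blue, the library number above each point, and the group mean with its SD (n = 5) as a black bar; each vertical axis starts at 0. The groups overlap for all 10 genes, and DSS-1 is highest for Foxp3, Gata3, Il2ra, Tnfrsf18, Il10, Tgfb1 and Il10ra.

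Il10 (ENSMUSG00000016529, chromosome 1, 130947582 to 130952711) had the smallest p of the members. The DSS libraries 1 to 5 held 52, 33, 18, 38 and 7 Il10 counts, or 3.01, 1.65, 1.08, 2.43 and 0.420 CPM. The ceAF libraries held 5, 21, 21, 9 and 13 counts, or 0.382, 1.37, 1.15, 0.537 and 0.715 CPM. All 5 ceAF libraries lay below the DSS median, and DSS-1, DSS-4 and DSS-2 were the highest, but DSS-5 was second lowest of the 10 and DSS-3 lay among the ceAF values. Mean Il10 was 1.72 ± 1.04 CPM in DSS and 0.830 ± 0.416 in ceAF (SD, n = 5 each). The log2 fold change of Il10 was -1.03 (SE 0.50, 95% interval -2.14 to 0.08). The edgeR quasi-likelihood p was 0.0650 unadjusted and 0.734 after Benjamini-Hochberg adjustment. The exact two-sided permutation test of the mean log2 level, whose smallest possible p is 0.00794, gave p = 0.167. Which libraries were included decided the side of the threshold: without DSS-5 the difference was -1.26 with an unadjusted p of 0.0123 and an adjusted p of 0.437 (edgeR quasi-likelihood, Benjamini-Hochberg), and without ceAF-2 it was -1.25 with an unadjusted p of 0.0432. Without DSS-1 it was -0.73 with an unadjusted p of 0.179. DESeq2 gave -1.04 with an unadjusted p of 0.0456 and an adjusted p of 0.629. Voom with sample quality weights gave -0.64 with an unadjusted p of 0.146.

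Tgfb1, the main TGF-beta ligand of leukocytes, depended on single libraries in both groups. It stood at 30.2, 12.8, 12.5, 15.6 and 13.6 CPM in DSS libraries 1 to 5 and at 4.20, 14.3, 12.5, 14.4 and 14.0 CPM in ceAF libraries 1 to 5. Apart from DSS-1, the highest, and ceAF-1, the lowest, the libraries of both groups lay together between 12.5 and 15.6 CPM. The log2 fold change of Tgfb1 was -0.51 (SE 0.35, 95% interval -1.27 to 0.25). It was -0.19 without DSS-1, -0.30 without ceAF-1, and 0.02 with DSS-1, DSS-5 and ceAF-1 left out together.

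Il10ra encodes the ligand-binding chain of the IL-10 receptor, which is found mainly on leukocytes. Its levels were 34.8, 10.8, 13.2, 15.2 and 6.54 CPM in DSS libraries 1 to 5 and 5.49, 12.6, 13.0, 5.73 and 10.1 CPM in ceAF libraries 1 to 5. All 5 ceAF libraries lay below the DSS median, yet DSS-1 alone stood high and DSS-5 lay among the lowest ceAF values. The log2 fold change of Il10ra was -0.78 (SE 0.42, 95% interval -1.71 to 0.15), with an unadjusted p of 0.0927 and an adjusted p of 0.745 (edgeR quasi-likelihood, Benjamini-Hochberg). Without DSS-1 it was -0.28, and without DSS-5 it was -0.96 with an unadjusted p of 0.0319. Il10rb, the chain shared with receptors of related cytokines, lay between 71.9 and 83.2 CPM in DSS and between 56.5 and 93.6 CPM in ceAF. Its log2 fold change was -0.02 (SE 0.13, 95% interval -0.30 to 0.26), the narrowest interval among the members.

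Per length of transcript, the members spanned a wide range of level. On the deposited FPKM scale, the mean over 10 mice was highest for Il10rb, at 20.5 ± 2.32 FPKM (SD), and Il10rb exceeded the next gene, Il10ra, in 10 of 10 mice. Il10ra, Tgfb1, Tnfrsf18 and Ikzf2 followed at 3.67, 2.89, 2.56 and 2.56 FPKM. Il10ra exceeded Tgfb1 in 8 of 10 mice, but Tgfb1 exceeded Tnfrsf18 in only 6 of 10 and Tnfrsf18 exceeded Ikzf2 in 6 of 10, so the last 3 were not separated. Their order also differed by group. The DSS means were 4.67 for Il10ra, 3.40 for Tgfb1, 2.62 for Tnfrsf18 and 2.33 FPKM for Ikzf2. In ceAF, Ikzf2 was at 2.80, Il10ra at 2.66, Tnfrsf18 at 2.50 and Tgfb1 at 2.37 FPKM. Over all 10 mice, Il10 came next at 0.975 ± 0.678 FPKM, then Gata3 at 0.712, Il2ra at 0.477, Foxp3 at 0.195 and Ikzf4 at 0.175. Ikzf2 exceeded Il10 in 8 of 10 mice and Il10 exceeded Gata3 in 7 of 10, with an SD of Il10 larger than the gap to Gata3. Gata3 exceeded Il2ra, and Il2ra exceeded Foxp3, in 9 of 10 each. Foxp3 exceeded Ikzf4 in 7 of 10 mice, and the SDs of both (0.0922 and 0.0762 FPKM) were larger than the gap between them.

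T cells are only a small part of colon tissue, so the members were also read against cell-type markers of the same library. All 10 T-cell markers had log2 fold changes below 0, with a median of -1.23, and 9 of 10 had an unadjusted p under 0.05. That these markers were lower in ceAF was known from earlier results when the ratios were chosen, so a ratio to them is not independent of it. The summed T-cell marker level was 122, 122, 126, 130 and 48.7 CPM in DSS libraries 1 to 5 and 45.8, 67.5, 55.1, 31.0 and 36.9 CPM in ceAF libraries 1 to 5. DSS-5 was the DSS library that lay within the ceAF range.

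The log2 level of Foxp3 minus the mean log2 level of the T-cell markers was -2.62, -3.80, -3.30, -3.69 and -3.43 in DSS libraries 1 to 5. In ceAF libraries 1 to 5 it was -2.59, -3.01, -2.41, -1.40 and -1.38. Relative to T-cell markers, 4 of 5 ceAF libraries were above every DSS library, and ceAF-2 lay below DSS-1. The difference in means was 1.21 on the log2 scale (exact two-sided permutation p = 0.0159, or 0.0476 after Benjamini-Hochberg adjustment over the 8 ratios computed). Nearly all of it was the reference: the mean log2 level of the T-cell markers differed by -1.16 and that of Foxp3 by 0.05. The p-value therefore carries the marker difference known beforehand and is no test of Foxp3 itself. Ikzf2 relative to T-cell markers differed by 1.52 and Tnfrsf18 by 1.12, each with an exact permutation p of 0.0238, or 0.0476 adjusted over the 8 ratios. All 5 ceAF libraries were above the DSS median for both, and 3 of 5 above every DSS library. Here too the marker level made up most of the difference, since Ikzf2 itself differed by 0.35 and Tnfrsf18 by -0.04 in mean log2 level.

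When single mice were dropped, the exact permutation p of the Foxp3, Ikzf2 and Tnfrsf18 ratios stayed under 0.05 in 10 of 10 cases, between 0.0159 and 0.0476. The value adjusted over the 8 ratios was under 0.05 in 0 of 10. Each of these p-values again holds the marker difference known beforehand, so they are no test of the 3 genes themselves. With DSS-1, DSS-5 and ceAF-1 left out together the differences were 1.55 for Foxp3, 1.24 for Ikzf2 and 1.52 for Tnfrsf18. None of the 3 then passed unadjusted, with exact permutation p of 0.0571, 0.171 and 0.0571. Fewer libraries allow fewer permutations, so the lost threshold alone does not show a smaller difference. With Cd4 alone as the reference, an alternative added after the data were seen, the differences were 1.08 for Foxp3 (exact permutation p = 0.0238), 1.38 for Ikzf2 (p = 0.0714) and 0.99 for Tnfrsf18 (p = 0.0794). Cd4 was itself lower in ceAF, at a log2 fold change of -1.14, so this reference has the same limit. The absolute levels of these genes overlapped between groups while the marker level was lower in ceAF. Ikzf2 is not specific to T cells, so epithelial markers are given beside it. They summed to 16040, 20770, 23410, 23380 and 13380 CPM in DSS libraries 1 to 5 and 28400, 19160, 20530, 15590 and 15920 CPM in ceAF libraries 1 to 5. The order of these sums rested on Car1, which ranged from 115 CPM in DSS-5 to 11920 CPM in ceAF-1. Without Car1, an alternative added after the data were seen, they were 14920, 16110, 15640, 18420 and 13260 CPM in DSS libraries 1 to 5 and 16480, 18350, 17190, 14840 and 15410 CPM in ceAF libraries 1 to 5. DSS-4 was then highest, and DSS-3 and ceAF-1, highest for Ikzf2, were not. With Car1 included, ceAF-1 had the largest sum, and DSS-3 (23410 CPM) and DSS-4 (23380 CPM) came next. DSS-4 was among the lower libraries for Ikzf2, at 20.3 CPM. DSS-5, lowest for Ikzf2, had the smallest sum with and without Car1. The part of epithelial content in the Ikzf2 ratio was not tested.

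Ratios of the IL-10 genes were computed in the same way, and no test compared them with those above. Il10 relative to T-cell markers differed by 0.29 (exact permutation p = 0.381) and relative to macrophage markers by -0.39 (exact permutation p = 0.381), both 0.435 adjusted over the 8 ratios. Il2ra relative to T-cell markers differed by 0.50 (exact permutation p = 0.246, adjusted 0.394). As single mice were dropped, the Il10 ratio to T-cell markers ran from 0.13 (without DSS-3) to 0.48 (without DSS-1), and it was 0.16 with Cd4 as the reference. The Il2ra ratio ran from 0.32 (without ceAF-4) to 0.76 (without ceAF-1, exact permutation p = 0.0556). Without the 3 libraries together Il2ra was at 1.13 and Il10 at 0.58, each with an exact permutation p of 0.0286, or 0.114 adjusted over the 8 ratios. The Il10 ratio to macrophage markers ran from -0.73 (without DSS-5, exact permutation p = 0.0476, adjusted 0.0762) to -0.20 (without DSS-4). Il10ra relative to macrophage markers differed by -0.17 (exact permutation p = 0.643), and it turned to 0.065 without DSS-1. Il10ra relative to general leukocyte markers was -1.72, -2.13, -1.98, -1.68 and -1.87 in DSS libraries 1 to 5 and -1.54, -1.59, -1.50, -1.44 and -1.78 in ceAF libraries 1 to 5. On that scale 4 of 5 ceAF libraries were above every DSS library, a difference of 0.31 (exact permutation p = 0.0238, adjusted 0.0476), and the adjusted value was likewise under 0.05 in 0 of 10 cases with a mouse left out. This ratio too holds a lower reference, since Il10ra itself differed by -0.65 and the leukocyte markers by -0.96 in mean log2 level.

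**Figure D2:**
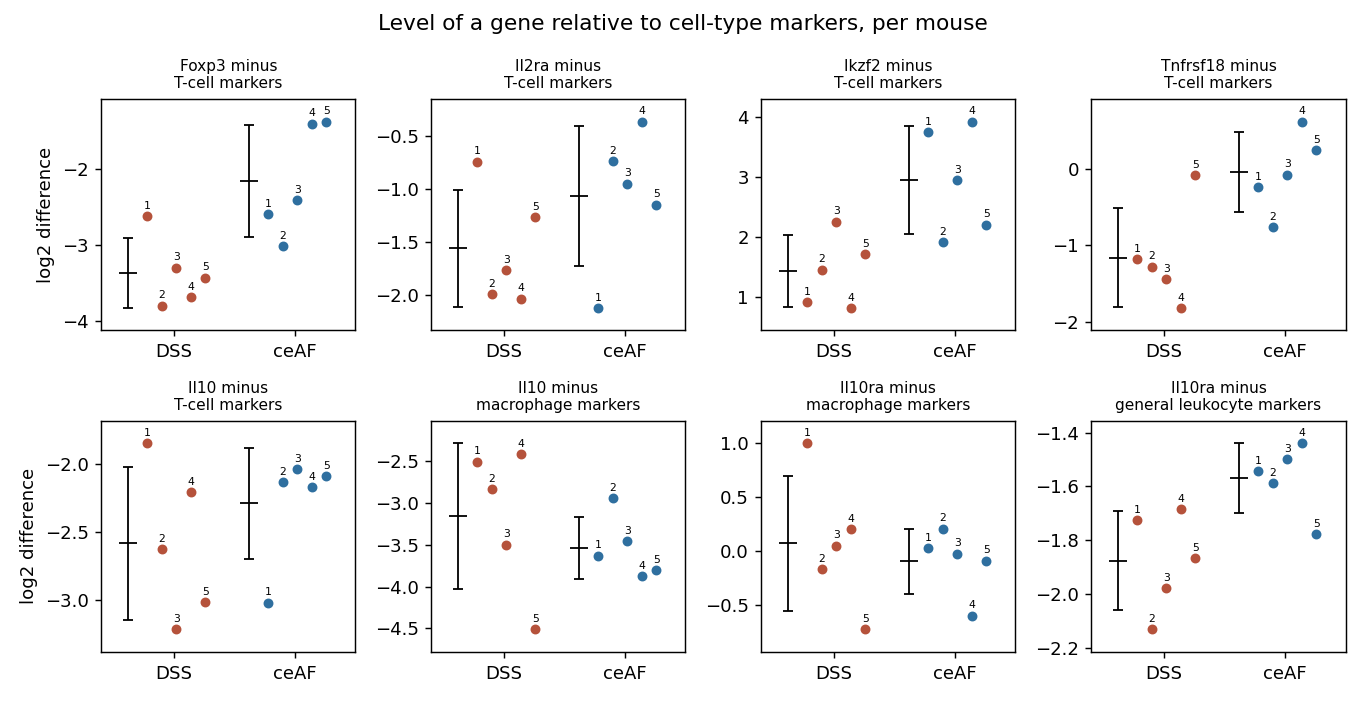
Log2 level of a gene minus the mean log2 level of a marker list in every library, with DSS in red and ceAF in blue, the library number above each point, and the group mean with its SD (n = 5) as a black bar; vertical axes differ between panels and do not start at 0. For Foxp3 relative to T-cell markers, 4 of 5 ceAF libraries lie above every DSS library, while Il10 relative to T-cell or macrophage markers overlaps between groups.

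Other genes of the regulatory T-cell program were read from the same fit. Of 30 listed genes, 25 were tested (Klrg1, Ccr8, Gpr83, Il12a and Ccr4 were not), 21 were below 0, the median log2 fold change was -0.47, and 6 were lower and 0 higher at an unadjusted p under 0.05. Batf, an AP-1 factor of effector regulatory and helper T cells, had the smallest p, with a log2 fold change of -1.62 (SE 0.38) and unadjusted p = 0.00131 in edgeR's quasi-likelihood test. It was 3.31 ± 1.51 CPM in DSS and 1.07 ± 0.443 in ceAF. Batf was under 0.05 in 10 of 10 fits with a mouse left out, at -1.76 to -1.33, and DESeq2 gave it an adjusted p of 0.0272, against a Benjamini-Hochberg adjusted 0.656 from edgeR quasi-likelihood. Icos, a costimulatory receptor, followed at -1.23 (SE 0.40, unadjusted p = 0.0108), and it too was under 0.05 in 10 of 10 such fits. Tigit, an inhibitory receptor, was at -0.94 (SE 0.35) and Satb1, a chromatin organizer of T cells, at -1.03 (SE 0.41), with unadjusted p of 0.0208 and 0.0277, each under 0.05 in 8 of 10 such fits. Satb1 rested partly on DSS-1, at -0.50 without it. Entpd1, named after its values were seen, was at -1.09 and also under 0.05, and at -0.32 without DSS-1. Capg, the most abundant gene of the list by length at 45.7 FPKM, was at -0.16 (SE 0.36). It was at 0.13 without DSS-1. Without DSS-1 the list had 16 of 25 genes below 0 and a median of -0.19, with 4 lower under 0.05. With the 3 libraries left out, Batf was at -1.30, Icos at -1.32, Tigit at -1.01 and Satb1 at -0.68. The list then had 6 genes lower and 2 higher under 0.05 among 26 tested. In that fit 2575 of all genes tested were under 0.05, against 1146 with all 10 libraries. The 2 higher genes, named after their values were seen, were Nt5e at 0.82 and Il1rl1 at 1.07.

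In IL-2 receptor signaling, 7 of 8 tested genes were below 0 with a median of -0.18, and Il2 itself was not tested. The shared chains Il2rb and Il2rg were lower, at -0.88 (SE 0.35, unadjusted p = 0.0299) and -0.74 (SE 0.31, unadjusted p = 0.0338), and 0 genes were higher under 0.05. They were under 0.05 in 5 and 4 of 10 fits with a mouse left out. Il2rg was at -0.52 without DSS-1, with an unadjusted p of 0.102. Cish, a target of the receptor, was at -0.30, the transducer Stat5b at -0.17, and the kinase Jak1, the most abundant at 18.8 FPKM, at -0.15. With the 3 libraries left out the median of the list was -0.37 with 2 genes lower under 0.05, and Jak1 was at 0.0032.

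In IL-10 signaling, 10 of 13 genes were below 0 with a median of -0.26, and 2 were lower and 0 higher at an unadjusted p under 0.05. The lean rested on the libraries that stood apart: the median was -0.11 without DSS-1 and 0.01 with the 3 left out. With the 3 left out, 5 of 13 were below 0, and 0 were lower and 1 higher (Il1rn) under 0.05 by edgeR, where 2575 of all genes tested were. Socs3, a feedback inhibitor induced through STAT3 by several cytokines, was at -1.54 (SE 0.48, unadjusted p = 0.00789). It stood at 151, 39.6, 42.7, 48.1 and 194 CPM in DSS libraries 1 to 5 and at 28.5, 35.6, 23.6, 51.2 and 24.8 CPM in ceAF libraries 1 to 5. DSS-5 and DSS-1 were far above all others, and ceAF-4 lay above DSS-2, DSS-3 and DSS-4. Socs3 was under 0.05 in 10 of 10 fits with a mouse left out, at -1.75 to -1.08. With DSS-1, DSS-5 and ceAF-1 left out, Socs3 was at -0.36 with an unadjusted p of 0.187. Il21r was at -0.93 (SE 0.42, unadjusted p = 0.0484) and at -0.62 without DSS-1, under 0.05 in 4 of 10 fits with a mouse left out. Nfil3 and Hmox1, induced by IL-10 in macrophages, were at -1.16 (SE 0.61) and -0.88 (SE 0.48), and Il1rn, the IL-1 receptor antagonist and the most abundant at 29.6 FPKM, was at -0.32 (SE 0.41). Without DSS-1 Hmox1 was at -0.16 and Il1rn at 0.15, and Nfil3 was at -0.76 without DSS-5 but at -1.68 without ceAF-1, with an unadjusted p of 0.0192 there. With the 3 libraries left out Hmox1 was at 0.27 and Il1rn at 0.39.

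In TGF-beta signaling, 14 of 21 genes were below 0 with a median of -0.07, near that of all genes tested, and 2 were lower and 0 higher at an unadjusted p under 0.05. Without DSS-1 it was 11 of 21 with a median of -0.02. With the 3 libraries left out it was 11 of 21, with 1 lower and 2 higher under 0.05, where 2575 of all genes tested were. Thbs1, which can activate latent TGF-beta, was at -1.74 (SE 0.59, unadjusted p = 0.0129) and the ligand Tgfb2 at -0.77 (SE 0.33, unadjusted p = 0.0381). Thbs1 was high in DSS-1 and DSS-5, at 336 and 206 CPM, and lay between 21.1 and 56.8 CPM in the other 8 libraries. Thbs1 was under 0.05 in 10 of 10 fits with a mouse left out, at -1.96 to -1.10. Without DSS-1 Thbs1 was at -1.10, with an unadjusted p of 0.0463, and with DSS-1, DSS-5 and ceAF-1 left out it was at -0.17 with an unadjusted p of 0.573. Without DSS-5 Tgfb2 was at -0.38, with an unadjusted p of 0.139. Ltbp3, which holds the latent ligand in the matrix, was at -0.43, the receptor Tgfbr1 at -0.16, and Smad4, the most abundant at 39.6 FPKM, at -0.09. Without DSS-1 Ltbp3 was at -0.26, and Smad4 turned to 0.27 without DSS-5 and to 0.52 without the 3 libraries (unadjusted p = 0.00238, edgeR quasi-likelihood).

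**Figure D3:**
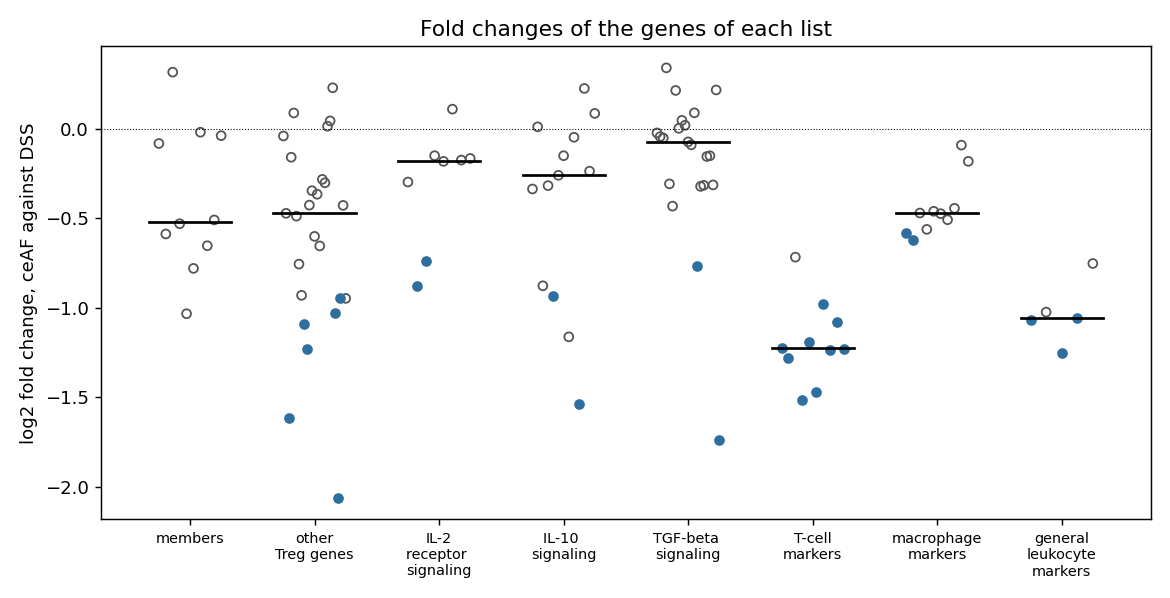
Log2 fold change of ceAF against DSS for each tested gene of 8 lists, with 1 point per gene, filled where the unadjusted p of edgeR's quasi-likelihood test was under 0.05, and the list median as a black bar. The members have a median of -0.52 and no filled point, while 9 of 10 T-cell markers are filled at a median of -1.23.

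Markers of other cells were read from the same fit, and their part in the results was not tested. Cd4, Cd8a and Cd8b1 were all lower under an unadjusted p of 0.05, with a median of -1.42 and Cd8a the most abundant, and Cd40lg was not tested. All 5 general leukocyte markers were below 0, with a median of -1.06, 3 under 0.05, and Cd52 the most abundant. Their sum was 613, 259, 287, 268 and 127 CPM in DSS libraries 1 to 5 and 94.4, 201, 208, 86.0 and 191 CPM in ceAF libraries 1 to 5. Without DSS-1 the leukocyte median was -0.67 with 3 of 5 under 0.05. The order resembled that of Il10ra, with DSS-1 highest and ceAF-1 and ceAF-4 lowest.

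All 10 macrophage markers were below 0, with a median of -0.47, 2 under 0.05, and C1qa the most abundant. They summed to 245, 179, 176, 214 and 149 CPM in DSS libraries 1 to 5 and 74.6, 163, 190, 138 and 159 CPM in ceAF libraries 1 to 5. Macrophage markers under 0.05 in edgeR's test numbered 0 of 10 without DSS-1 (median -0.36), DSS-2, DSS-3, ceAF-1 (median -0.29), ceAF-4 or ceAF-5, 1 or 2 of 10 without DSS-4, ceAF-2 or ceAF-3, 3 of 10 without DSS-5 (median -0.56) and 3 of 10 with the 3 libraries left out (median -0.33). All 7 neutrophil markers were below 0, with a median of -3.94, 6 under 0.05, and S100a9 the most abundant. Their sum was 1681, 17.64, 179, 22.03 and 70.4 CPM in DSS libraries 1 to 5 and 2.44, 15.9, 18.5, 46.5 and 21.4 CPM in ceAF libraries 1 to 5. DSS-1 carried most of the neutrophil signal, and without it the median was -1.07 with 1 of 7 under 0.05. The T-cell markers did not rest on it: without DSS-1 their median was -1.19 with 8 of 10 under 0.05.

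B-cell markers (8 tested, median -0.57, led by Cd79a) had 0 genes under 0.05 and summed to 248, 43.0, 33.4, 37.0 and 41.2 CPM in DSS and 9.61, 45.3, 86.8, 13.2 and 124 CPM in ceAF. Their direction turned without DSS-1, to a median of 0.61 with 0 of 8 below 0, and with the 3 libraries left out it was 0.98 with 1 gene higher under 0.05. Plasma-cell markers (6 tested, median -0.45, led by Jchain) had 1 gene under 0.05 and summed to between 640 and 1052 CPM in DSS and between 252.1 and 910 CPM in ceAF, with a median of -0.19 without DSS-1. Type 2 innate lymphoid and mast cell markers, read because Gata3 is also active there, had 5 of 10 tested, a median of -0.21 and 0 under 0.05, with Kit the most abundant and Il13 at 0 in all libraries. That median was -0.05 without ceAF-1, and -0.04 with 1 gene lower under 0.05 when the 3 libraries were left out. Their sum lay between 49.6 and 76.2 CPM in DSS and between 54.9 and 65.3 CPM in ceAF. Epcam of the epithelial list lay between 1573 and 2443 CPM in all 10 libraries, which shows epithelium in each but does not identify the colon. Car1, the most abundant of that list, differed widely between libraries in both groups, from 115 to 7774 CPM in DSS and from 505 to 11920 CPM in ceAF. The epithelial list had a median of 0.05, fibroblasts -0.37 (led by Col3a1), smooth muscle -0.19 (led by Actg2) and endothelium -0.26 (led by Pecam1), each with 0 genes under an unadjusted p of 0.05 in edgeR's test. These directions were not stable: fibroblasts were at 0.01 without DSS-1, and with the 3 libraries left out fibroblasts were at 0.20, smooth muscle at 0.26, endothelium at 0.05 and epithelium at -0.04, the last with 2 genes lower under 0.05. Without ceAF-4 endothelium was at -0.57 with 4 of 6 genes lower under 0.05. ceAF-1, lowest for Il2ra, Il10, Tgfb1 and Il10ra, was also the lowest library for fibroblast (174 CPM), endothelial (29.8 CPM) and macrophage (74.6 CPM) sums.

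The genes most like Il10 over the 10 libraries, by Pearson correlation of log2 CPM among 15230 genes, were Cd5 (r = 0.963), Cd40 (0.955), Ctla4 (0.955), Cd4 (0.953) and Havcr2 (0.944). Cd5, Ctla4 and Cd4 are genes of T cells, Cd40 of antigen-presenting cells and Havcr2 of both. The genes most like Foxp3, among 15231, were Clcf1 (r = 0.962), 4930503L19Rik (0.941), Pde1b (0.932), Bhlhe41 (0.918) and Pla2g2c (0.917), and none of these is a T-cell marker of the lists used. These values describe the 10 libraries, which share tissue and differ in cell makeup, and high values are found when so many genes are searched. With 5 to 30 Foxp3 counts per library, its neighbours in particular are a description only.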

How the data were processed

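Poly(A) RNA of 10 colon samples was sequenced. Per the submitters' processing notes, the authors trimmed reads with cutadapt 1.9.1 and aligned them with HISAT2 2.2.1. The counting program, its strand setting and the genome build are not given in the sources used here. The authors deposited raw counts per gene and FPKM, and each deposited FPKM equals the count over exonic length and library total. Counts were fitted with edgeR 4.0.16 (R 4.3.3; filterByExpr with a minimum count of 10, TMM, quasi-likelihood, group only), p-values adjusted by Benjamini-Hochberg over 16545 genes, and the fit was tested on simulated data. Log2 CPM used a prior count of 1. Exact two-sided permutation tests, coded in Python 3.11.15, compared single values. Alternatives used DESeq2 1.42.0, limma 3.58.1 (voom with sample quality weights, and limma-trend on log2 FPKM), other filters and scalings, and each mouse left out.

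Members and gene lists were chosen with earlier results of these data known. Named genes were all members, up to 4 genes per pathway list with the smallest unadjusted p plus the most abundant, the most abundant marker of each cell type, and the 5 genes most correlated with Foxp3 and Il10. A listed gene under the threshold is not reported here by name.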

Additional observations from a re-analysis of the deposited data

Results flagged for a closer look

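In 36 groups of 5 libraries examined, 3 had a library whose gap to its nearest neighbour, as a share of the whole range, passed Dixon's critical value of 0.71, where chance gives about 1.8. Tgfb1 was one gene with such a library in both groups: DSS-1 was the highest of its group with a gap of 0.753 of the range, and ceAF-1 the lowest of its group with a gap of 0.886. The third was Il10 relative to T-cell markers, where ceAF-1 was the lowest of its group with a gap of 0.868. DSS-1 and ceAF-1 are the libraries that also stood apart on the principal components.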

How the results depend on the processing

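Of the alternative values computed, 361 kept their direction and their side of the threshold or, for counts, stayed within 1.5 times, and 19 changed sign. A further 12 counts moved by more, 10 values no longer passed the threshold and 7 newly passed it. The causes were not tested unless said. Genes with an adjusted p under 0.05 numbered 0, 31 with DESeq2 and 0 to 3 with a mouse left out (3 without DSS-5). Genes with an unadjusted p under 0.05 numbered 1146, 1568 with DESeq2 and 2452 with voom (with sample quality weights). They numbered 1733 with no filter (more genes tested), and 712 (without DSS-1) to 1872 (without ceAF-1) with a mouse left out. Under that same p, members lower in ceAF numbered 0, 1 with DESeq2 (Il10) and 0 to 2 with a mouse left out (2 without DSS-5). Members higher numbered 0 throughout. Voom gave Foxp3 0.023, Ikzf2 -0.0083 and Tnfrsf18 0.010. With a mouse left out, Foxp3 ran from -0.28 to 0.29, Tnfrsf18 from -0.11 to 0.046 and Il10rb from -0.097 to 0.075. The ratio of Il10 to macrophage markers ran from -0.73 (without DSS-5, exact permutation p = 0.0476) to -0.20, and that of Il10ra from -0.37 to 0.065 (without DSS-1).

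Leaving out DSS-1, DSS-5 and ceAF-1 together was chosen after seeing the data. It gave 1 gene with an adjusted p under 0.05, 2575 with an unadjusted one, and Foxp3 0.15, Ikzf2 -0.18, Tnfrsf18 0.10 and Tgfb1 0.016. Ratios to T-cell markers were then 1.55 for Foxp3 (exact permutation p = 0.0571), 1.24 for Ikzf2 (p = 0.171), 1.52 for Tnfrsf18 (p = 0.0571), 1.13 for Il2ra (p = 0.0286) and 0.58 for Il10 (p = 0.0286), the last 2 with a value of 0.114 adjusted over the 8 ratios, and Il10ra to leukocyte markers 0.36 (p = 0.0857). Cd4 as reference, also chosen after seeing the data, gave Ikzf2 1.38 and Tnfrsf18 0.99.

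Replicate numbers did not pair the libraries: same-numbered libraries correlated at -0.249, -0.136, -0.00429, -0.159 and 0.286. The replicate block gave 694 genes with an unadjusted p under 0.05 and Foxp3 0.024. Under the replicate block a ratio's mean is the same by arithmetic, 1.21 for Foxp3, 1.52 for Ikzf2, 1.12 for Tnfrsf18 and 0.31 for Il10ra to leukocyte markers, so it bears on the test alone, where the exact sign-flip permutation p was 0.0625, the smallest that 5 pairs allow. Counts of 5 to 30 for Foxp3 and 5 to 52 for Il10 limit what differences can be seen.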
